A study of Mus musculus with 12 samples.

Results

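Hearts of diabetic mice that stayed sedentary were compared with hearts of healthy sedentary mice, over all the mouse genes an Affymetrix MG_U74Av2 array measures. The comparison used 6 of the 12 arrays of a study of diabetes and treadmill training, chosen by their labels: diabetic sedentary hearts at weeks 1, 3 and 5, and healthy sedentary hearts at weeks 1, 3 and 5. All mice were male NMRI mice aged 10 to 15 weeks. The diabetic mice had 1 intraperitoneal streptozotocin injection of 180 mg/kg in citrate buffer, and the healthy mice had an equal volume of the buffer. Diabetes was taken as a urine glucose over 200 mg/dl, tested 72 hours after the injection. Each array held RNA pooled from 5 hearts, so a group has 3 arrays, 1 at each week. The spread behind the p-values of the main fits is therefore that between pools once differences between weeks are fitted, not between single mice. The fit also shares this spread across probe sets. Every diabetic mouse had also received streptozotocin, so effects of the drug and of diabetes cannot be told apart here. The remaining 6 arrays, of diabetic trained and healthy trained hearts (treadmill running 5 days a week), are used near the end.

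Streptozotocin kills the insulin-producing beta cells of the pancreas and gives a model of type 1 diabetes. Without insulin, glucose uptake by the heart falls and its use of fatty acids from fat tissue rises. Fatty acids activate the nuclear receptor PPARalpha, which switches on genes of fat handling and Pdk4, a kinase that shuts pyruvate out of mitochondrial oxidation. The adult mouse ventricle runs mainly on the fast myosin heavy chain Myh6, and the slow heavy chain Myh7 is the form of the fetal ventricle. Insulin loss also frees the FoxO transcription factors, and untreated diabetes in rodents is known to raise glucocorticoids.

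Median signal was 19.2, 19.1 and 18 on the diabetic arrays of weeks 1, 3 and 5, against 19.9, 20.4 and 17.3 on the healthy arrays. Each array had a mean correlation of 0.952 to 0.963 with the other 5, and the ratio of 3' to 5' signal was 1.70 to 2.14 for Actb and 1.04 to 1.22 for Gapdh. The 3' probe set for 18S ribosomal RNA read 80.9, 132.0 and 1395.3 in diabetic hearts, against 322.0, 1140.9 and 3809.3 in healthy hearts, lower at each week in diabetic hearts and far apart between weeks in both groups. Its part in the results was not tested. Both arrays of a week were run on the same day with the same chip lot. All diabetic sedentary arrays went through one fluidics module and all healthy sedentary arrays through another, so module and condition cannot be told apart. Heart identity was clear in both groups, with a summed signal of 11 cardiomyocyte markers of 23873.9, 24611.7 and 22881.5 in diabetic hearts, against 26929.0, 31174.9 and 24877.5 in healthy hearts. The sum was lower in diabetic hearts at each week. None of the 11 passed the adjusted threshold used below, and their median log2 difference was -0.20. An unadjusted p under 0.05 was reached by 7 (63.6%, 6 of them negative), against 12.8% of all named genes.

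Of 7453 probe sets bright enough to test, 34 passed a Benjamini-Hochberg adjusted p of 0.05, which is 0.456% of those tested. In diabetic hearts 27 were higher (0.362%) and 7 were lower (0.0939%), and they stand for 29 named genes, 23 higher and 6 lower, and 1 probe set with no gene name. Fold differences ran from 1.45 to 3.71 for the 32 probe sets whose signals all lay above the brightest bacterial or yeast control (11.3), and 23 of the 34 were at least 2-fold. All 34 differed in the same direction at each of the 3 weeks, with no overlap between the groups. Over all tested probe sets, 6.99% lay higher in diabetic hearts without overlap and 6.86% lay lower without overlap. An unadjusted p under 0.05 was reached by 964 probe sets, 12.9%. The number past the threshold rests on few arrays: it was 3 without week 1, 5 without week 3 and 207 without week 5. Ccn2 and the main Myh7 probe set were past it in each of these. It was 14 when the 2 pools of a week were not treated as a pair, and 0 with no filter on dim probe sets (1045 with an unadjusted p under 0.05) or with no trend of variance with signal (785).

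**Figure D1:**
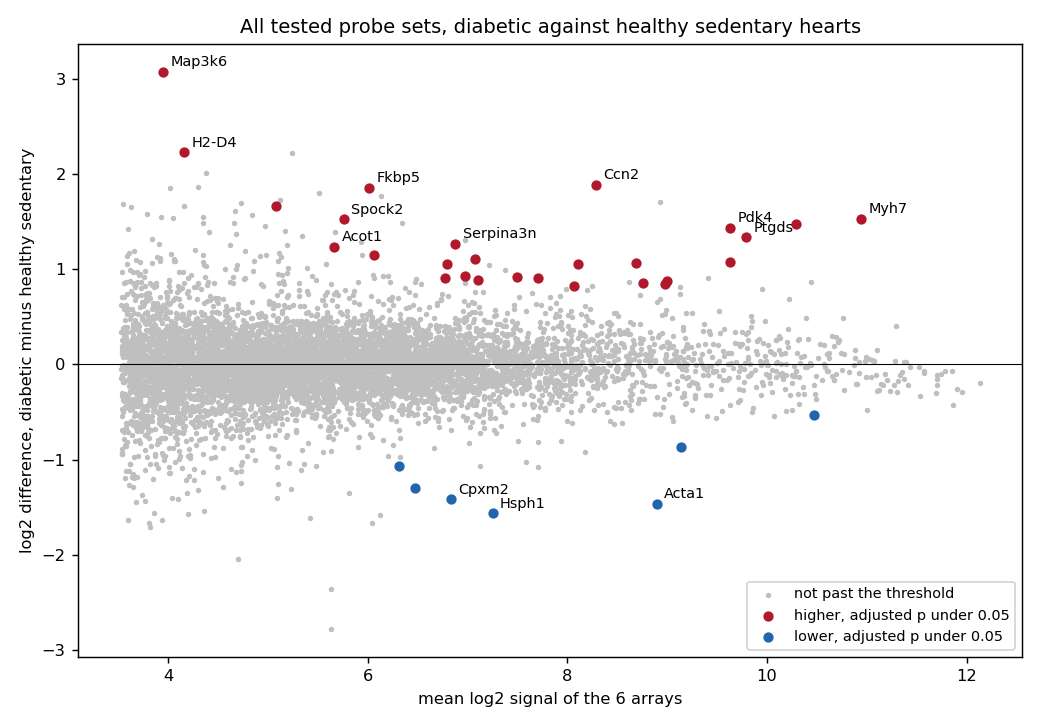
Each point is one of the 7453 tested probe sets, with the mean log2 signal of the 6 sedentary arrays across and the log2 difference of diabetic minus healthy hearts up. The 27 probe sets higher in diabetic hearts (red) and 7 lower (blue) past the adjusted threshold lie at the edges of the grey cloud, and genes with a difference of at least 1.2 are named.

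Myh7 rose in diabetic hearts and Acta1 fell, while the other 18 tested genes of the list did not pass. The main Myh7 probe set read 3962.2, 4031.7 and 2348.4 in diabetic hearts at weeks 1, 3 and 5, against 1106.1, 1503.9 and 934.9 in healthy hearts. Every diabetic pool lay above every healthy pool. The log2 difference was 1.53 ± 0.11 (SE of the fit, n = 3 arrays each, as for every SE below), with an adjusted p of 0.00352. A second, dimmer Myh7 probe set differed by 1.67 ± 0.20 (adjusted p = 0.0261). Both carry the suffix by which the array marks probes shared within a gene family, so related heavy chains can add to them.

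Acta1, the skeletal alpha-actin that the heart also makes, read 430.4, 217.0 and 251.1 in diabetic hearts, against 813.1, 631.6 and 959.6 in healthy hearts. It was lower in every diabetic pool, by a log2 difference of -1.46 ± 0.18 (adjusted p = 0.0261). Its promoter is shown because serum response factor is known to drive this gene through CArG boxes. Of 32851 mouse promoter windows in RefSeq (GRCm38.p6, 250 bases before to 50 after the start), 1.63% hold a CArG box on either strand. Of 21 contractile genes with a window, 4 hold one (Acta1, Actc1, Myl3 and Myl7). The Acta1 window is chr8:123894726-123895025 on the minus strand, read 5' to 3', with the box from -73 to -64 in capitals.
Acta1: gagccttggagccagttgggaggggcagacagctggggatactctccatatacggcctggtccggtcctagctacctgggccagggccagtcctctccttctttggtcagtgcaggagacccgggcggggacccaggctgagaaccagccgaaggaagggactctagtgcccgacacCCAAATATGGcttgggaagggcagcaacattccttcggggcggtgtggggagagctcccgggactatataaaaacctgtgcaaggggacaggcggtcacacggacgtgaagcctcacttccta
A match is a string of letters, not a measured site, and binding was not measured here.

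Of 20 tested genes of this list, 1 rose and 1 fell, and 7 had a positive difference. The median log2 difference was -0.14, against -0.01 over 5658 named genes. With quantile normalization the list median was -0.02, with 10 genes positive and 10 negative. An unadjusted p under 0.05 was reached by 12 of the 20 (60.0%, 8 of them negative), against 12.8% of all named genes, and 12 lay lower at all 3 weeks (60.0%), against 18.5% of all named genes. Myh6, the adult fast heavy chain, read 3287.9, 3227.1 and 3133.1 in diabetic hearts, against 4023.5, 5017.2 and 3978.5 in healthy hearts. The groups did not overlap, but the difference of -0.42 ± 0.09 did not pass (adjusted p = 0.103). Nppb, the gene of B-type natriuretic peptide, read 1154.7, 1266.0 and 1502.8 in diabetic hearts and 905.5, 757.6 and 610.0 in healthy hearts, a difference of 0.80 ± 0.16 that also did not pass (adjusted p = 0.102). The atrial light chains Myl4 and Myl7 had differences of -0.54 (adjusted p = 0.0766) and -0.47 (adjusted p = 0.118). A second, dimmer Myl4 probe set differed by 0.05 (adjusted p = 0.968). Nppa (0.38), Ankrd1 (0.03), Tnnt2 (0.04) and Tnnc1 (-0.08) did not pass either.

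Acta1 is also a marker of skeletal muscle, which can be carried along when a heart is removed. The summed signal of 12 skeletal muscle markers was 955.1, 728.6 and 746.0 in diabetic hearts, against 1573.1, 1336.3 and 1721.7 in healthy hearts. Acta1 and Ckm, both made by heart muscle, gave most of that sum, and the fast-fibre genes Myh1, Myh2 and Tnnt3 stayed under 11.3, the highest bacterial or yeast control signal, on all 6 arrays. All 8 tested markers lay lower in diabetic hearts, with a median difference of -0.50, and 1 of them, Acta1, passed. The fast-fibre genes that could be measured were dim: Mylpf read 22.6, 22.4 and 14.4 in diabetic hearts, against 39.1, 28.0 and 18 in healthy hearts. The part of skeletal muscle in the Acta1 difference was not tested.

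**Figure D2:**
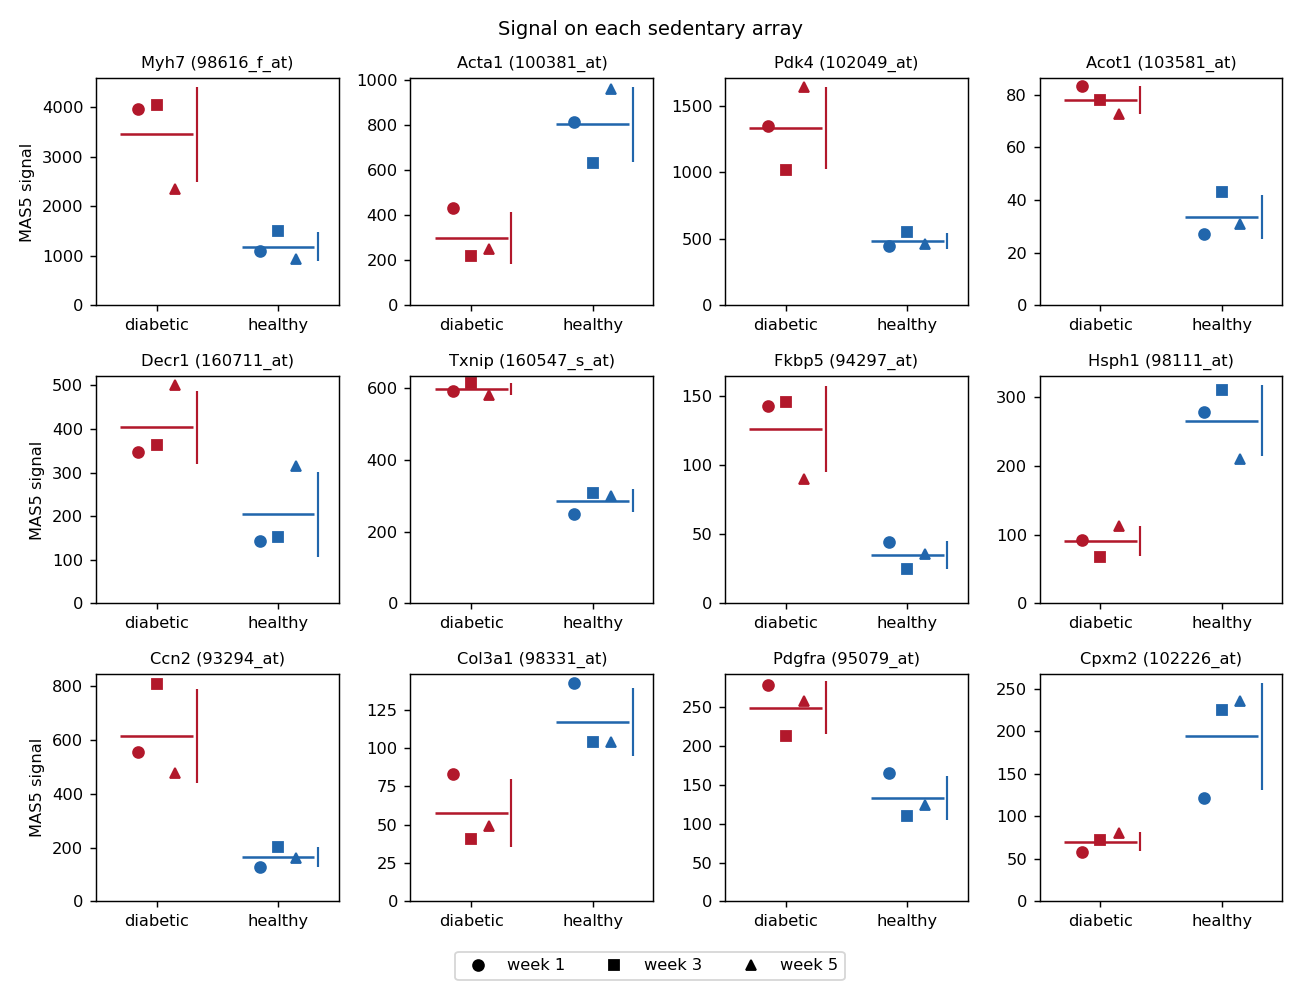
MAS5 signal (linear, from 0) on each sedentary array for 12 probe sets past the threshold, diabetic hearts on the left and healthy hearts on the right of each panel. Circles, squares and triangles are weeks 1, 3 and 5, lines are means and vertical bars are 1 SD over the 3 arrays. No panel shows an overlap between the groups.

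Several genes of fat use rose in diabetic hearts. Of 13 tested PPARalpha and fasting lipid genes, 4 rose (Pdk4, Acot1, Hsd17b11 and Acss1), none fell and 12 had a positive difference. In all, 9 of the 13 had an unadjusted p under 0.05 (69.2%). Of 5658 named genes, each by its brightest probe set, 22 rose, 6 fell and 2786 were positive. An unadjusted p under 0.05 was found for 12.8% of them, and these shares are the background for every list below. The median log2 difference of the 13 was 0.85, and it was 0.72, 0.65 and 0.76 at weeks 1, 3 and 5. Pdk4 read 1342.9, 1016.7 and 1636.8 in diabetic hearts, against 444.7, 552.7 and 458.8 in healthy hearts, a difference of 1.44 ± 0.17 (adjusted p = 0.0261). The lowest diabetic pool was well above the highest healthy pool.

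Acot1, a thioesterase that releases free fatty acid from acyl-CoA in the cytosol, read 83.2, 78.0 and 72.6 in diabetic hearts and 27.0, 42.9 and 30.9 in healthy hearts (difference 1.24 ± 0.19, adjusted p = 0.0488). Hsd17b11, a lipid droplet enzyme, read 153.9, 154.4 and 172.2 in diabetic hearts and 75.9, 65.5 and 91.7 in healthy hearts (1.06 ± 0.14, adjusted p = 0.0324). Acss1, which makes acetyl-CoA from acetate in mitochondria, read 532.0, 673.8 and 552.8 in diabetic hearts and 316.9, 327.6 and 325.4 in healthy hearts (0.85 ± 0.11, adjusted p = 0.031). All 3 were higher in every diabetic pool than in any healthy pool. Other members that did not pass were Angptl4 (1.26, adjusted p = 0.0976), Ucp3 (1.01, adjusted p = 0.118) and Cpt1a (0.90, adjusted p = 0.106). The message of the receptor itself, Ppara, was the only member with a negative difference (-0.48, adjusted p = 0.261).

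The mitochondrial beta-oxidation enzymes moved less. Of 20 tested genes of fatty acid uptake and oxidation, 1 rose, none fell, 15 were positive and the median was 0.16. The one that rose was Decr1, the reductase needed to oxidise polyunsaturated fatty acids. It read 347.4, 362.6 and 500.8 in diabetic hearts, against 143.8, 153.0 and 316.1 in healthy hearts (1.06 ± 0.15, adjusted p = 0.0389). Both groups were highest at week 5, and the difference held within each week. Eci1, an isomerase of the same unsaturated branch, differed by 0.46 ± 0.09 and did not pass (adjusted p = 0.0938). The central dehydrogenase Acadm (0.01) and the lipase Lpl (0.05) were nearly level, and Cpt2 differed by -0.45 (adjusted p = 0.158).

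Plin4, a coat protein of lipid droplets, rose as well, with 199.5, 200.6 and 131.1 in diabetic hearts against 95.9, 115.0 and 68.7 in healthy hearts (0.93 ± 0.14, adjusted p = 0.0389). Plin4 is also made in fat cells. The summed signal of 8 adipocyte markers was 352.2, 320.2 and 261.2 in diabetic hearts, against 265.7, 244.0 and 196.1 in healthy hearts, with Retn and Cidec at or under the floor on all 6 arrays. That sum was higher in diabetic hearts at each week. None of 6 tested adipocyte markers passed (1 with an unadjusted p under 0.05, positive). Of the 6, 5 had a positive difference and 1 a negative one, with a median of 0.24. At all 3 weeks 3 lay higher and none lay lower. The fat cell hormone Adipoq read 21.8, 16.8 and 23.3 in diabetic hearts and 23.8, 22.2 and 13.2 in healthy hearts. Its direction was thus not the same at each week. The part of fat tissue in the Plin4 difference was not tested.

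Genes that build fat leaned the other way in single members but none passed. Of 12 tested genes of fatty acid and triglyceride synthesis, 6 had an unadjusted p under 0.05, 4 of them negative, and the median was -0.10. Scd1, the delta-9 desaturase, read 82.8, 104.0 and 105.1 in diabetic hearts, against 242.8, 244.7 and 139.4 in healthy hearts. That difference of -1.06 ± 0.21 had an adjusted p of 0.0976. Fasn (-0.76), Lpin1 (-0.69) and Thrsp (-0.60) also lay lower without overlap and did not pass.

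Among 28 tested genes of glucose uptake, glycolysis and glycogen, 1 fell, none rose, 21 were negative and the median was -0.19. Eno3, the muscle enolase, fell to 1215.6, 1239.7 and 1081.3 in diabetic hearts, against 1754.3, 1797.8 and 1565.7 in healthy hearts. Its difference of -0.53 ± 0.08 (adjusted p = 0.0476) was the smallest of those that passed, 1.45-fold, with tight agreement between weeks. Pgam2 (-0.49, adjusted p = 0.106), Hk2 (-0.48, adjusted p = 0.119) and Pkm (-0.46, adjusted p = 0.0976) lay lower without overlap and did not pass. Fbp2, the muscle fructose bisphosphatase, which runs against glycolysis, read 47.3, 72.4 and 40.6 in diabetic hearts and 23.5, 31.7 and 18 in healthy hearts (1.12 ± 0.18, adjusted p = 0.0537), just short of the threshold.

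No single gene passed in the lists of mitochondrial energy use, and the lists were not tested as wholes. None of 59 tested oxidative phosphorylation genes passed (9 with an unadjusted p under 0.05, all negative), and their median was -0.07. Of the 59, 43 were negative and 23 lay lower at all 3 weeks (39.0%), against 18.5% of all named genes. None of 17 tricarboxylic acid cycle genes passed (4 unadjusted), with a median of -0.04 and 7 lower at all 3 weeks (41.2%). None of 13 genes of ketone and branched-chain amino acid use passed (2 unadjusted), with a median of -0.23. Oxct1, the enzyme that lets the heart burn ketone bodies, read 605.4, 711.8 and 952.6 in diabetic hearts, against 890.0, 877.0 and 1148.9 in healthy hearts (-0.38 ± 0.10, adjusted p = 0.188). None of 17 insulin and IGF signalling genes passed either (4 unadjusted), with a median of 0.19.

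Txnip, the protein that binds and blocks thioredoxin and whose gene responds to glucose, rose in diabetic hearts. It read 593.2, 614.6 and 581.8 in diabetic hearts, against 250.3, 309.1 and 299.1 in healthy hearts, with little spread among the 3 pools of either group. The difference was 1.07 ± 0.11 (adjusted p = 0.0186). A second, dimmer Txnip probe set did not pass (0.32, adjusted p = 0.633). Its promoter is shown because the glucose response of this gene is known to run through a carbohydrate response element near the start. The letters searched were a pair of CACGNG boxes with 5 bases between, on both strands, a pattern that takes in the E-box. They occur in 16 of the 32851 windows, 0.0487%. The FoxO string GTAAACA, searched on both strands, is in 3.65% of windows. The Txnip window is chr3:96557707-96558006 on the plus strand, with the FoxO string (-121 to -115) and the carbohydrate response element (-85 to -69) in capitals.
Txnip: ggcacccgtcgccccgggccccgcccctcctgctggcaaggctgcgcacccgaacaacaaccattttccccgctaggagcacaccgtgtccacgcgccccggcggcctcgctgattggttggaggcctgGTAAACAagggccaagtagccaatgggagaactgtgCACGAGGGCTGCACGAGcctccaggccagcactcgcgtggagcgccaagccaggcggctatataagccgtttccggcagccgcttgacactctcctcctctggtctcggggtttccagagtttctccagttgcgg
These matches describe the sequence alone.

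Of 26 tested antioxidant and metallothionein genes, 2 rose (Txnip and Cat), none fell, 17 were positive and the median was 0.14. Cat, the catalase that breaks down hydrogen peroxide, read 185.9, 174.0 and 200.3 in diabetic hearts and 96.3, 89.2 and 119.6 in healthy hearts (0.89 ± 0.13, adjusted p = 0.0433). A second Cat probe set showed a difference of 0.01. Mt2, a zinc-binding metallothionein, read 1225.9, 833.1 and 663.8 in diabetic hearts, against 204.3, 262.2 and 364.1 in healthy hearts. Its difference of 1.71 ± 0.27 was among the larger ones but its adjusted p was 0.0522, and the gap was widest at week 1. Mt1 differed by 0.90 (adjusted p = 0.158).

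Genes that answer glucocorticoids and FoxO also leaned higher in diabetic hearts. Of 19 tested genes, 2 rose (Fkbp5 and Zbtb16), none fell and 15 were positive. The median was 0.49, with week medians of 0.72, 0.82 and 0.26. Of the 19, 11 had an unadjusted p under 0.05 (57.9%), against 12.8% of all named genes. Fkbp5, a co-chaperone that restrains the glucocorticoid receptor and is itself induced by it, read 142.3, 145.5 and 89.7 in diabetic hearts, against 44.6, 24.5 and 35.8 in healthy hearts (1.86 ± 0.24, adjusted p = 0.031). Zbtb16, a zinc finger transcription factor that glucocorticoids induce, read 285.1, 332.9 and 249.3 in diabetic hearts, against 157.1, 151.8 and 148.8 in healthy hearts (0.91 ± 0.13, adjusted p = 0.0389). The healthy values of Zbtb16 were nearly identical, while a second, dim probe set for it differed by -0.21 (adjusted p = 0.817).

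Several further members did not pass. Sgk1, the serum- and glucocorticoid-regulated kinase, read 154.4, 198.1 and 165.3 in diabetic hearts and 87.7, 73.5 and 123.3 in healthy hearts (0.89 ± 0.20, adjusted p = 0.12). Cebpd (0.99, adjusted p = 0.141), Cdkn1a (1.35, adjusted p = 0.158), Sesn1 (0.83, adjusted p = 0.127) and Ddit4 (0.68, adjusted p = 0.122) likewise lay higher. Tsc22d3, another classic glucocorticoid target, did not: it read 9.7, 18.4 and 10.3 in diabetic hearts and 13.6, 23.7 and 14.3 in healthy hearts, close to the background signal. Of 20 genes of this list with a promoter window, 3 hold the FoxO string (Klf9, Trim63 and Sesn1).

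Map3k6 and Serpina3n, both linked to stress responses, also rose. Map3k6, a kinase of the stress-activated MAP kinase cascade, read 53.6, 72.5 and 23.2 in diabetic hearts, against 4.6, 7.6 and 4.3 in healthy hearts. All 3 healthy signals lay below 11.3, the brightest bacterial or yeast control, so it entered the test through its diabetic signals and has only a bound. Set against 11.3 it was at least 3.97-fold higher in diabetic hearts (adjusted p = 0.0186 on the measured values), and its measured log2 difference of 3.08 was 1.54 when 16 was added to every signal and 1.90 with the higher floor. Serpina3n, a protease inhibitor of the acute phase, read 269.5, 169.7 and 133.2 in diabetic hearts and 78.9, 82.3 and 66.8 in healthy hearts (1.27 ± 0.18, adjusted p = 0.0389). The diabetic values were highest at week 1 for Serpina3n, and the healthy values were level.

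Chaperones lay lower. Of 24 tested heat shock and chaperone genes, 2 fell (Hsph1 and Fkbp4), none rose and 22 were negative. All 8 with an unadjusted p under 0.05 were negative (33.3%, against 12.8% of all named genes in either direction). The list median was -0.35, and the week medians were -0.48, -0.43 and -0.10. Hsph1, a large heat shock protein that helps Hsp70 exchange its nucleotide, fell to 92.0, 67.4 and 111.8 in diabetic hearts, against 277.2, 310.2 and 209.0 in healthy hearts (-1.57 ± 0.23, adjusted p = 0.0389). Fkbp4, an Hsp90 co-chaperone that helps the glucocorticoid receptor reach the nucleus, fell to 410.8, 426.7 and 418.6 in diabetic hearts, against 760.2, 853.6 and 682.8 in healthy hearts (-0.86 ± 0.11, adjusted p = 0.0261). This Fkbp4 probe set carries the gene family suffix described for Myh7. A second Fkbp4 probe set differed by -0.64 (adjusted p = 0.146). The 2 immunophilins of steroid receptors thus differed in opposite directions, Fkbp5 higher and Fkbp4 lower in diabetic hearts.

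The inducible Hsp70 genes had the widest gaps of the list and the widest spread. Hspa1b read 20.1, 13.9 and 24.0 in diabetic hearts, against 90.6, 395.3 and 60.8 in healthy hearts, with no overlap. Its difference of -2.78 ± 0.55 did not pass (adjusted p = 0.0976), and the healthy pool of week 3 stood far above the other two healthy pools. Hspa1a, a near-identical copy whose probes can share its RNA, differed by -2.37 (adjusted p = 0.176). The constitutive Hspa8 (-0.12), the mitochondrial Hspa9 (-0.01) and the endoplasmic reticulum chaperones Hspa5 (-0.19) and Hsp90b1 (0.05) were close to level.

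The promoter of Hsph1 is shown because heat shock factor drives chaperone genes through heat shock elements. The letters searched were 3 alternating GAA and TTC blocks, each 2 bases apart, on both strands, and 0.603% of promoter windows hold them. Of 23 chaperone genes with a window, 4 do (Hsph1, Hspd1, Hspe1 and Chordc1), and of these Hsph1 passed the test. The windows of Fkbp4, the other chaperone gene that fell, and of Hspa1a and Hspa1b hold no match. The Hsph1 window is chr5:149636287-149636586 on the minus strand, with the element (+37 to +49 from the start) in capitals.
Hsph1: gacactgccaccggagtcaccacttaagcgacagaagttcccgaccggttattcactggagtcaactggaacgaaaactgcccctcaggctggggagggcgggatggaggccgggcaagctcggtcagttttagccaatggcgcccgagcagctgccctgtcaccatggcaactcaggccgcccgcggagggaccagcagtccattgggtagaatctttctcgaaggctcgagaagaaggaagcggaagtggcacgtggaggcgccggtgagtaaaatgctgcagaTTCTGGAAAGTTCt
Hspd1, the mitochondrial chaperonin, read 541.6, 635.4 and 608.0 in diabetic hearts and 828.0, 1294.0 and 625.1 in healthy hearts (-0.56, adjusted p = 0.234).

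**Figure D3:**
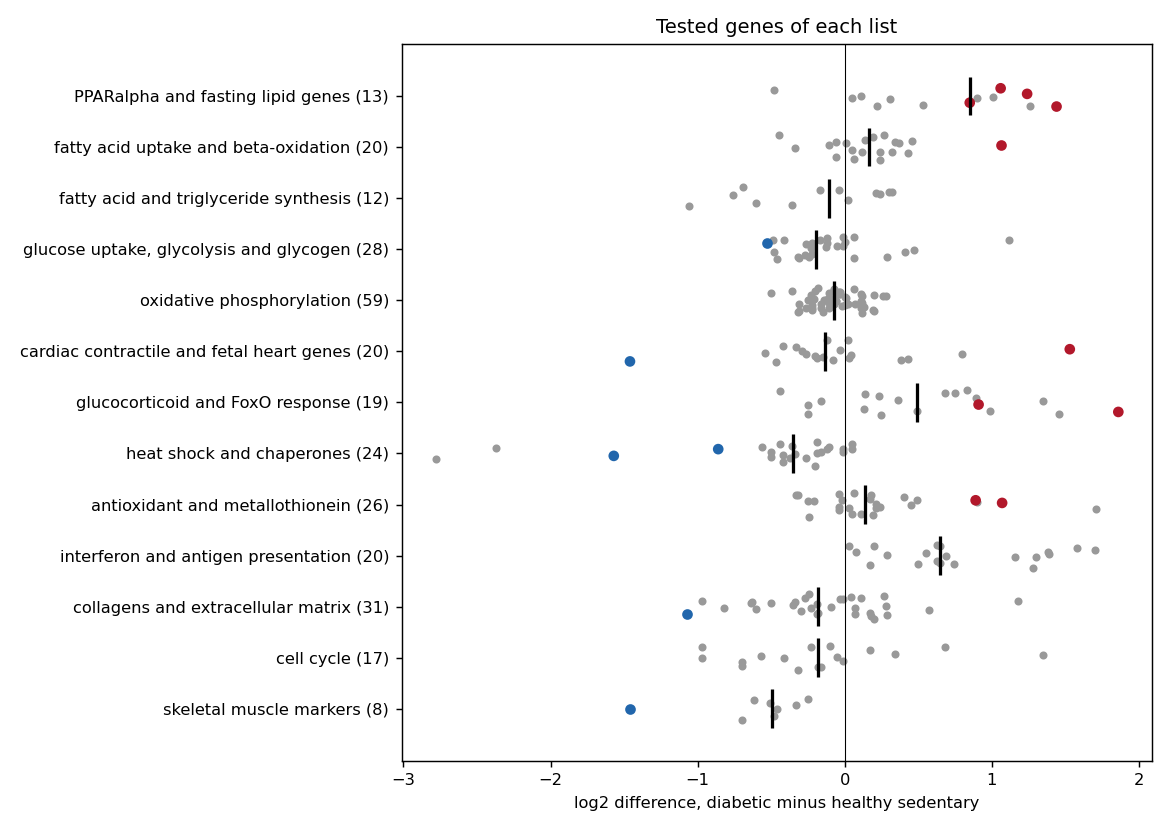
Log2 difference of diabetic minus healthy sedentary hearts for every tested gene of 13 lists (number tested in brackets). Grey points did not pass, red points rose, blue points fell, and the black bar is the list median: 0.85 for PPARalpha and fasting lipid genes, 0.49 for glucocorticoid and FoxO genes, 0.65 for interferon genes, -0.35 for chaperones and -0.50 for skeletal muscle markers.

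Genes of the extracellular matrix differed singly and in both directions. Ccn2, also called connective tissue growth factor, rose to 555.5, 810.8 and 479.6 in diabetic hearts, against 128.7, 202.4 and 162.8 in healthy hearts (1.89 ± 0.14, 3.71-fold, adjusted p = 0.00352). With Myh7 it had the smallest adjusted p of all probe sets. Col3a1, a fibrillar collagen, fell to 82.9, 40.6 and 49.2 in diabetic hearts, against 142.6, 103.8 and 104.1 in healthy hearts (-1.07 ± 0.17, adjusted p = 0.0476). A dimmer Col3a1 probe set differed by -1.66 and did not pass (adjusted p = 0.0924).

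Of 31 tested collagen and matrix genes, Col3a1 was the 1 that fell and none rose, with 19 negative and a median of -0.18. Col1a1 (-0.82, adjusted p = 0.0978), Col15a1 (-0.97, adjusted p = 0.0938) and Col4a1 (-0.60, adjusted p = 0.0909) lay lower and did not pass, nor did the collagen chaperone Serpinh1 (-1.08, adjusted p = 0.0909). Thbs2, a thrombospondin, read 53.0, 50.1 and 52.9 in diabetic hearts and 19.3, 18.2 and 34.7 in healthy hearts (1.18, adjusted p = 0.0938). Of 18 tested matrix protease, inhibitor and TGF-beta genes, Ccn2 was the 1 that rose, none fell and the median was -0.04 (0.02 at the highest of the alternative settings). Ccn2 is a known target of TGF-beta, whose own messages did not pass: Tgfb1 differed by 0.26, Tgfb2 by -0.13 and Tgfb3 by -0.56. Timp3, an inhibitor of matrix proteases, differed by 0.73 (adjusted p = 0.0909).

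Cpxm2, a secreted member of the carboxypeptidase family, fell on both of its probe sets. The brighter read 58.1, 71.8 and 80.9 in diabetic hearts, against 121.9, 225.1 and 235.2 in healthy hearts (-1.42 ± 0.16, adjusted p = 0.0252), and the other differed by -1.30 ± 0.17 (adjusted p = 0.031). Spock2, a secreted proteoglycan, rose to 75.5, 110.3 and 93.9 in diabetic hearts, against 36.9, 33.9 and 26.0 in healthy hearts (1.53 ± 0.20, adjusted p = 0.031). Pdgfra, the PDGF receptor that marks cardiac fibroblasts, rose to 278.9, 212.7 and 257.6 in diabetic hearts, against 165.2, 109.7 and 124.8 in healthy hearts (0.92 ± 0.13, adjusted p = 0.0389), while a second, dim probe set differed by 0.06. Pdgfra was the 1 gene past the threshold of 18 tested angiogenesis and PDGF genes, whose median was 0.03. Vegfa, the main endothelial growth factor, differed by -0.48 (adjusted p = 0.253).

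Of 11 tested fibroblast markers, Pdgfra rose and Col3a1 fell, 3 had an unadjusted p under 0.05, and the median difference was -0.27 (-0.29 to -0.04 over the alternative settings). Their summed signal was 3469.6, 2928.1 and 3617.8 in diabetic hearts, against 3244.1, 3307.5 and 3609.0 in healthy hearts, ranges that overlap. In pooled tissue RNA, fewer cells of a type and less RNA per cell cannot be told apart. None of 11 endothelial markers passed (3 with an unadjusted p under 0.05). Among them Aqp1, the water channel of capillaries, read 95.3, 159.9 and 159.0 in diabetic hearts, against 250.6, 231.7 and 353.7 in healthy hearts (-1.03 ± 0.18, adjusted p = 0.0766), while Vwf (0.47) and Eng (0.48) leaned the other way. None of 7 smooth muscle and pericyte markers passed (2 unadjusted), with a median of -0.07.

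Several enzymes outside the lists rose, as did a transporter chain of the amino acid list. Ptgds, which makes prostaglandin D2, did so on all 3 of its probe sets. The one with the smallest p read 1532.8, 1369.1 and 1332.6 in diabetic hearts, against 483.4, 642.4 and 556.4 in healthy hearts (1.34 ± 0.12, adjusted p = 0.0138). The others differed by 1.08 and 1.48, and both carry the gene family suffix described for Myh7. Inmt, a methyltransferase of small amines, read 199.6, 188.2 and 207.7 in diabetic hearts and 90.9, 71.3 and 119.9 in healthy hearts (1.11 ± 0.16, adjusted p = 0.0389). Both genes lay higher in every diabetic pool than in any healthy pool.

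Car4, a carbonic anhydrase on the cell surface, read 102.6, 96.8 and 98.8 in diabetic hearts and 45.2, 47.4 and 42.0 in healthy hearts (1.15 ± 0.15, adjusted p = 0.031). A second Car4 probe set did not share this, with a difference of -0.16 (adjusted p = 0.688). Slc3a2, the heavy chain of amino acid transporters, read 164.6, 162.9 and 124.2 in diabetic hearts and 85.9, 83.8 and 70.4 in healthy hearts (0.91 ± 0.14, adjusted p = 0.0433). It was the 1 gene that rose of 11 tested genes of amino acid transport and stress response, whose median was 0.19. Its transport partner Slc7a5 differed by -0.18, and the stress factors Atf4 and Ddit3 by 0.18 and -0.20, none past the threshold.

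The other 3 probe sets that passed fall, like Plin4, outside the rule for naming genes and were chosen after their values were seen. Ptp4a3, a membrane-bound phosphatase, read 864.9, 742.5 and 483.5 in diabetic hearts and 469.9, 352.1 and 320.3 in healthy hearts (0.85 ± 0.12, adjusted p = 0.0389). Cd63, a tetraspanin of late endosomes, read 341.7, 380.9 and 351.1 in diabetic hearts and 183.6, 197.0 and 227.0 in healthy hearts (0.83 ± 0.12, adjusted p = 0.0433). The last, a probe set with no gene name in the annotation, differed by 0.87 ± 0.13 (adjusted p = 0.0459).

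Interferon and antigen presentation genes lay furthest apart at week 1. All 20 tested genes had a positive difference and none passed (9 with an unadjusted p under 0.05). The list median was 0.65 over the 3 weeks, and 1.52, 0.46 and 0.15 at weeks 1, 3 and 5. Igtp, an interferon-induced GTPase, read 199.8, 27.0 and 20.3 in diabetic hearts, against 16.9, 15.6 and 12.1 in healthy hearts. Its relative Iigp1 read 578.5, 131.0 and 100.5 in diabetic hearts, against 77.4, 74.5 and 87.9 in healthy hearts. The diabetic pool of week 1 stood far above all other pools for both, and each week is 1 array against 1, so the change over weeks has no test.

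H2-D4, a class I histocompatibility gene, passed the threshold. It read 82.8, 39.9 and 17.5 in diabetic hearts, against 17.4, 6.6 and 4.9 in healthy hearts (adjusted p = 0.0261). The healthy values of weeks 3 and 5 were below the brightest bacterial or yeast control, so it too entered the test through its diabetic signals, and with these raised to 11.3 it was at least 2.96-fold higher in diabetic hearts. Its measured log2 difference of 2.23 was 1.18 when 16 was added to every signal, and 1.51 and no longer past the threshold with the higher floor. The lowest diabetic value barely exceeded the highest healthy one, and its probes are shared within the gene family. The classical genes H2-K1 (0.74, adjusted p = 0.165) and H2-D1 (0.69, adjusted p = 0.209) did not pass. H2-K1 read 1254.6, 619.4 and 486.6 in diabetic hearts and 496.0, 403.7 and 405.0 in healthy hearts, again highest at week 1.

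Immune cell markers were not past the threshold. None of 10 tested macrophage and neutrophil markers passed (1 unadjusted), and their summed signal was 1027.5, 747.7 and 900.6 in diabetic hearts, against 791.6, 793.4 and 935.5 in healthy hearts, higher in diabetic hearts at week 1. The sum of 10 T and B cell markers was 144.3, 129.7 and 92.8 in diabetic hearts, against 171.8, 156.7 and 133.5 in healthy hearts, with 6 of the 10 under 11.3 on every array, Cd3e, Cd3d and Cd3g among them. The part of immune cells in the interferon differences was not tested.

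**Figure D4:**
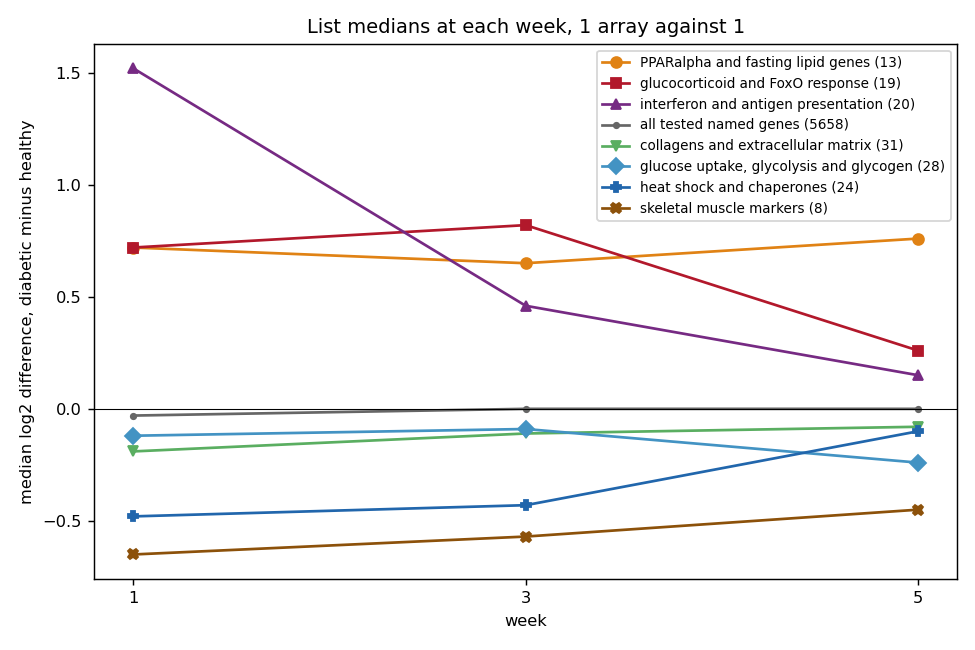
Median log2 difference of diabetic minus healthy sedentary hearts at weeks 1, 3 and 5 for 7 gene lists and all 5658 named genes, each week being 1 array against 1. The PPARalpha list stays between 0.65 and 0.76, the interferon list goes down over the weeks (1.52, 0.46, 0.15), and the chaperone list ends at -0.10.

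Of all named genes, 12.8% had an unadjusted p under 0.05. Other lists had no gene past the threshold. These were calcium handling (15 tested, 6 with an unadjusted p under 0.05, median -0.10), ion channels and connexins (14, 3, -0.06), cell cycle (17, 6, -0.18), immediate early genes (16, 4, -0.02), circadian clock (14, 3, 0.03), apoptosis (12, 1, -0.07) and proteasome (28, 2, 0.03). Camk2b, a subunit of calcium/calmodulin kinase, read 23.3, 19.6 and 11.4 in diabetic hearts, against 39.3, 50.4 and 27.7 in healthy hearts (-1.13, adjusted p = 0.0976). Ccnd1, the cyclin that starts the cell cycle, read 70.4, 43.6 and 60.0 in diabetic hearts, against 113.0, 132.6 and 93.2 in healthy hearts (-0.97, adjusted p = 0.119). Gja1, the main ventricular connexin, differed by -0.41 (adjusted p = 0.144) and the calcium pump Atp2a2 by -0.13 (adjusted p = 0.525).

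Some structural and signalling genes were next by p among those lower in diabetic hearts and did not pass. Actb, cytoplasmic beta-actin, read 176.1, 195.0 and 185.0 in diabetic hearts, against 362.2, 329.1 and 284.0 in healthy hearts (-0.80, adjusted p = 0.0583). Nr4a1, an inducible nuclear receptor, read 39.3, 28.2 and 26.3 in diabetic hearts, against 65.9, 59.0 and 69.0 in healthy hearts (-1.07, adjusted p = 0.0849). Ckm, the muscle creatine kinase, read 273.9, 273.0 and 307.6 in diabetic hearts, against 405.5, 398.1 and 519.5 in healthy hearts (-0.62, adjusted p = 0.0878). A second, dim Ckm probe set differed by 0.54 (adjusted p = 0.675). Fhl2, a heart LIM-domain protein (-0.49, adjusted p = 0.0878), and Tmsb10, an actin-binding thymosin (-0.80, adjusted p = 0.0909), did not pass either.

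Lung airway message differed between the groups in 2 of the 3 weeks. The sum of 5 lung markers was 48.7 to 54.2 in diabetic hearts, against 251.6, 144.0 and 50.6 in healthy hearts, and Scgb1a1, the club cell secretory protein, gave 13.8, 16.4 and 9.2 in diabetic hearts and 205.4, 55.6 and 12.8 in healthy hearts. None of the 3 tested lung markers passed (1 unadjusted). The markers of red cells (sum 2292.0, 2140.4 and 2251.4 in diabetic hearts, 2515.5, 2963.6 and 2207.1 in healthy hearts), brown fat, liver and nerve had no gene past the threshold (0, 1, 0 and 0 with an unadjusted p under 0.05 of 3, 4, 1 and 3 tested).

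The same contrast in trained hearts uses 6 other arrays, so it shares no control with the sedentary one. One of them, the diabetic trained array of week 3, was run on a day and chip lot of its own and stood apart: its log2 differences from the healthy trained array of its week had an SD of 0.988, against 0.457 to 0.603 for the 3 sedentary pairs. All diabetic trained arrays went through one fluidics module and all healthy trained arrays through another, so module and condition cannot be told apart here either. Each group had a module of its own, so this holds for a comparison across training too. No probe set passed in trained hearts (409 with an unadjusted p under 0.05, 5.49%, smallest adjusted p 0.215). Of the 34 probe sets past the threshold in sedentary hearts, 32 had the same direction in trained hearts, where 53.8% of all tested probe sets did. In trained hearts 16 of the 34 had an unadjusted p under 0.05, all in the sedentary direction. At each of the 3 trained weeks, 24 of the 34 had that direction. Of all tested probe sets, 8.64% had 1 direction at every sedentary and trained week, but these were not picked for their sedentary weeks. Without week 3, 32 of the 34 again had the sedentary direction (60.9% of all tested). In that fit 26 had an unadjusted p under 0.05, all in the sedentary direction. The share of all tested probe sets under 0.05 in that fit is not given here, so the 26 cannot be set against the 16.

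Myh7 read 3070.6, 3107.8 and 2539.5 in diabetic trained hearts, against 1099.6, 1026.2 and 624.3 in healthy trained hearts, a log2 difference of 1.70 ± 0.21. Pdk4 read 1101.5, 1169.4 and 1831.7 in diabetic trained hearts, against 373.6, 288.6 and 299.4 in healthy trained hearts (2.06 ± 0.24). Ccn2 read 368.4, 319.3 and 412.0 in diabetic trained hearts, against 134.5, 191.1 and 139.4 in healthy trained hearts (1.25 ± 0.22). None of the 34 overlapped between diabetic and healthy hearts in the sedentary setting, and these 3 genes did not in the trained setting either. The share of all tested probe sets without overlap in trained hearts was not counted. Acot1 differed by 1.17 ± 0.27 in trained hearts (1.28 without week 3). Hsph1 differed by -1.43 ± 0.37 there, but by -0.93 without week 3, whose diabetic array stood apart. Acta1 differed by -0.69 ± 0.40 in trained hearts, with 0.56 at week 1, and by -0.12 without week 3. Col3a1 differed by -0.74 ± 0.41 in trained hearts, with 0.62 at week 1, and by -0.30 without week 3.

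Of the 34, 31 had a smaller difference in trained than in sedentary hearts, with a median size of 0.60 in trained hearts, taken in the sedentary direction, against 1.13 in sedentary hearts. Without week 3 the number was 30 and the median 0.71. Since the 34 were picked for large sedentary differences, a smaller value in other arrays follows in part from that choice. The direct test, an interaction of diabetes with training over all 12 arrays, passed for no probe set (322 with an unadjusted p under 0.05, 4.32%, smallest adjusted p 0.859, or 0.635 without the diabetic trained array of week 3). Pdgfra had 217.5, 119.8 and 192.9 in diabetic trained hearts, against 231.0, 191.6 and 209.6 in healthy trained hearts, a difference of -0.29 ± 0.20 where sedentary hearts had 0.92. Inmt differed by -0.10 ± 0.27 in trained hearts and 1.11 in sedentary hearts. These 2 were the probe sets of the 34 whose direction was not shared.

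**Figure D5:**
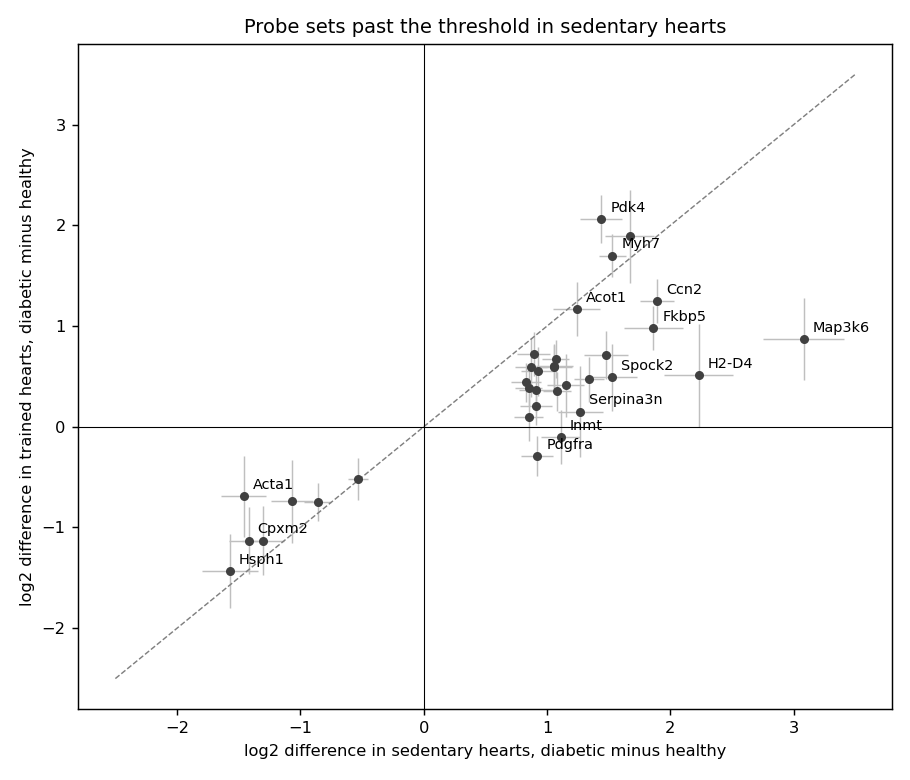
Log2 difference of diabetic minus healthy hearts in sedentary mice (across) and in trained mice (up) for the 34 probe sets past the threshold in sedentary hearts, with bars of 1 SE and a dashed line of equality. Myh7, Pdk4 and Acot1 lie near or above the line, 31 of the 34 are smaller in trained hearts (30 without week 3), and Pdgfra and Inmt fall below 0.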

How the data were processed

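The deposited values are MAS5 signal intensities per probe set on a linear scale, made by the authors with MAS5, per the submitters' processing notes; the version is not given in the sources used here. The series' value table of 12488 probe sets was used, without 66 controls. Signals of the 6 sedentary arrays were raised to a floor of 4.0 (their 20th percentile) and log2-transformed. Probe sets with a mean log2 signal at or above the 40th percentile (geometric mean 11.5) were kept, 7453 in all. Differences were fitted with limma 3.58.1 (R 4.3.3, lmFit and eBayes with trend), with condition and week as factors, leaving 2 residual degrees of freedom and 5.86 prior ones, and adjusted by Benjamini-Hochberg over all tested probe sets. The fit was checked on simulated data. Weeks were paired because the 2 groups of a week were killed together and their arrays share a run day and chip lot; deviations from group means correlated by 0.161, 0.0835 and 0.40 within weeks 1, 3 and 5, and by -0.321 to 0.225 between weeks, so at weeks 1 and 3 the data alone do not show the pairing. Trained arrays and the interaction were fitted likewise on the same probe sets. Array number limits the precision.

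Gene symbols came from the platform annotation, updated through RefSeq (GRCm38.p6): 10833 probe sets had 1 symbol, 396 several and 1193 none. A gene in a list was represented by its brightest probe set. The named genes were, in each direction, the 15 with the largest difference past the threshold and the same sign at all 3 weeks (lower genes filled up by smallest p, as values), and up to 4 members of smallest p from each list; other list members were named as examples after their values were seen. The members of the comparison and the gene lists were chosen with earlier results of these data known. Alternatives covered scaling, floor, filter, prior, the week block and leaving out arrays.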

Additional observations from a re-analysis of the deposited data

Results flagged for a closer look

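Of 121 named probe sets, 3 had every sedentary pair of arrays on one side and every trained pair on the other (2.48%), as had 223 of all 7453 tested (2.99%), so the share is near the background. Nr4a1, an inducible nuclear receptor, had a log2 difference of diabetic minus healthy of -1.07 in sedentary hearts and 0.45 in trained hearts. Pdgfra had 0.92 in sedentary hearts and -0.29 in trained hearts. Hibch, an enzyme of valine breakdown, had -0.44 in sedentary hearts and 0.12 in trained hearts. The test of the difference itself, the interaction of diabetes with training, had no probe set past the adjusted threshold. For Pdgfra the interaction was 1.21 with an unadjusted limma p of 0.00014 and an adjusted p of 0.859.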

How the results depend on the processing

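The 34 probe sets kept their direction in all 678 values computed for them under the alternatives, of which 368 stayed past the threshold and 310 did not. Their number was 4 with all 12 arrays in the fit, 60 with all arrays but the diabetic trained array of week 3, 14 with no replicate block for the week (12 higher, 2 lower), 0 with no filter (1045 unadjusted) and 0 with no intensity trend (785 unadjusted). Leaving out a week's pair, or 1 array, which under the week block removes its pair from the difference, gave 3 to 207. Fits without 1 array thus repeat the difference of the fit without its week, so the 678 values are not separate results. The 34 had the same direction at each of the 3 weeks, so these fits could not reverse any of them. Without week 1 the 3 were Ccn2, Myh7 and Acta1, and without week 3 the 5 were on Pdk4, Ccn2, Myh7 and Ptgds. Ccn2 and Myh7 were past the threshold most often, in 18 of 20 settings each, counting the repeats. Quantile normalization (34), median centring (43), log2 of signal plus 16 (35), a floor at the 40th percentile (41), a filter at the 60th (44) and a robust prior (34) stayed within 1.5 times. In trained hearts the number was 0, and 5 to 40 without 1 week. The interaction gave 0 in each of 3 fits. Among list medians, those of size 0.07 or less often changed sign (median centring turned the immediate early genes, and a filter at the 60th percentile the TGF-beta and ion channel lists), as did the amino acid list without week 1 (-0.06). Quantile normalization brought the contractile list from -0.14 to -0.02 and the cardiomyocyte markers from -0.20 to 0.0. The causes were not tested. Dim probe sets such as Map3k6 in healthy hearts are limited by signal over background.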
